A study of Mus musculus with 14 samples.

Results

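*Klf2*, *Klf4*, *Nos3* and *S1pr1* were followed as 4 genes that endothelial cells use to answer blood flow. They were taken by symbol from 19322 genes in the E10 single-cell table, 19424 genes in the E11 single-cell table and 19425 genes in the table of whole intra-aortic hematopoietic clusters (wIAHCs), and all 4 were found in each table. Laminar flow over an endothelial cell activates a kinase cascade that ends in MEF2 transcription factors, which switch on the Kruppel-like factors *Klf2* and *Klf4*. These in turn raise *Nos3*, the endothelial nitric oxide synthase, and *S1pr1*, a receptor for the lipid sphingosine-1-phosphate that steadies cell junctions. In the embryonic aorta, flow and nitric oxide are known to promote the endothelial-to-hematopoietic transition (EHT), in which hemogenic endothelial (HE) cells round up into intra-aortic hematopoietic clusters (IAHCs).

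The single cells were sorted from pooled mouse embryos at E10 (28 to 32 somite pairs) and E11 (more than 40 somite pairs), and 1 sample per population was deposited except where stated. Among Cdh5+ Gfi1b- cells, those named non-HE were Gfi1- c-kit-, those named HE were Gfi1+ c-kit- and those named EHT were Gfi1+ c-kit+. They came from aortas of ICR embryos that carried reporter alleles of *Gfi1* (tomato) and *Gfi1b* (GFP). All other populations came from wild-type C57BL/6 embryos. These were IAHC cells (c-kit+CD31+ at both stages and, as a second E11 sample, c-kit+ alone), type I and type II pre-HSCs of 1 E11 sample (c-kit+ Cdh5+, separated by CD45), c-kit+ hematopoietic stem and progenitor cells of the yolk sac (YS HSPCs), and c-kit+ wIAHCs. Strain therefore cannot be told apart from population between EHT cells and IAHC cells or pre-HSCs. Single cells were freed with collagenase, whereas each wIAHC was picked whole from an aortic slice and sequenced as 1 library. The column names also give finer ages than the labels. They call the E10 non-HE cells early E11 while the labels call them E10, which was followed here, so embryo age cannot be told apart from population among the E10 populations either.

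Values are transcripts per cell by CEL-Seq, which counts the 3′ end of each transcript once by a molecular barcode. Each cell's total was 3000 at E10 and 5000 at E11, so stages were compared only after the E11 cells were thinned to 3000. The tables held 546 E10 and 575 E11 cells in 1 to 5 sorted sets per population. With 1 sample per population no test between populations was possible, and the 95% intervals in parentheses cover counting error only. The sort labels were met by their markers. A list of 12 endothelial markers made up, at E10 and E11, 144 and 101 of every 10000 transcripts of non-HE cells, 108 and 122 of HE cells and 32.8 and 42.0 of EHT cells, against 13.4 to 26.0 among pre-HSCs and IAHC cells, and 1.68 and 3.87 among YS HSPCs. A list of 12 hematopoietic markers ran the other way, from 2.17 and 1.87 in non-HE cells to between 20.5 and 37.5 in EHT cells, IAHC cells, pre-HSCs and YS HSPCs. Each gene below is described along this path, non-HE to HE to EHT to IAHC.

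*Klf2*, the Kruppel-like factor that carries much of the laminar flow program, lies at chr8:72319033-72321656 on the plus strand (GRCm38, 3 exons). *Klf4*, its close relative with overlapping targets in endothelium, lies at chr4:55527143-55532466 on the minus strand (5 exons). Their proximal promoters are printed because these are the members that flow acts on through MEF2. The stretches were taken from RefSeq (GRCm38.p6), run 5′ to 3′ on each gene's own strand, and are chr8:72318812-72319032 for *Klf2* (plus strand, 250 to 30 bases before the RefSeq start of transcription) and chr4:55532476-55532725 for *Klf4* (minus strand, the 250 bases before the RefSeq start). The gene positions above are from GENCODE, whose starts differ from those of RefSeq, and the *Klf2* stretch ends where the GENCODE gene begins. Capitals mark a match to the MEF2 motif and matches to GGGCGG, searched on both strands.
Klf2 promoter: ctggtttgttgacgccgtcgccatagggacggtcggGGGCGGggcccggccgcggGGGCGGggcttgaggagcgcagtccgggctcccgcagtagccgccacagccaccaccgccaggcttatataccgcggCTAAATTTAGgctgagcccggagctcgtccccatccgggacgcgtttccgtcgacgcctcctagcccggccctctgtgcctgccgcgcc
Klf4 promoter: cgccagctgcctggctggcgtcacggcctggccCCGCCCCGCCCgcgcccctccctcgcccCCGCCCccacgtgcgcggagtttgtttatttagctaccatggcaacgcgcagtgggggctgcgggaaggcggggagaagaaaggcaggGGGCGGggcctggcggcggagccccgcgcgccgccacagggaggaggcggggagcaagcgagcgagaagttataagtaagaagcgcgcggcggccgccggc
The *Klf2* stretch held 1 MEF2 match, which reads the same on both strands, from -118 to -109, and GGGCGG on the plus strand from -214 and from -195. The *Klf4* stretch held GGGCGG on the plus strand from -101 and on the minus strand from -217, -212 and -189, of which the first pair overlap. It held no MEF2 match. Of 27025 mouse promoters of the same window, 3.01% held a MEF2 match and 32.9% held GGGCGG. These matches describe letters only, and absence of a match in this window says nothing of MEF2 action on *Klf4*.

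*Klf2* was highest in the sorted endothelial cells and lower with each step toward blood at E10. Per cell, the 43 non-HE cells held 2.86 transcripts (2.38 to 3.41), the 98 HE cells 0.949 (0.766 to 1.16), the 191 EHT cells 0.288 (0.217 to 0.375) and the 73 IAHC cells 0.164 (0.0849 to 0.287). Cells with at least 1 *Klf2* transcript numbered 32 of 43, 44 of 98, 32 of 191 and 11 of 73. In 141 YS HSPCs a single transcript was found in 1 cell. At E11 the 30 non-HE cells held 2.93 (2.35 to 3.61), the 46 HE cells 3.78 (3.24 to 4.39) and the 46 EHT cells 1.13 (0.844 to 1.5), so HE cells stood as high as non-HE cells and the lower level began only in EHT cells. Beyond EHT, *Klf2* was at 1.17 (1.02 to 1.33) in 201 c-kit+CD31+ IAHC cells, 0.270 (0.173 to 0.401) in 89 c-kit+ IAHC cells, 0.581 (0.407 to 0.804) in 62 type I pre-HSCs and 0.218 (0.113 to 0.381) in 55 type II pre-HSCs. In 46 E11 YS HSPCs there was again 1 transcript in 1 cell.

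*Klf4* was also highest in non-HE cells, with HE cells next at both stages and few transcripts from EHT cells onward. At E10 non-HE cells held 1.23 transcripts per cell (0.923 to 1.61), HE cells 0.204 (0.125 to 0.315), EHT cells 0.0262 (0.00850 to 0.0611) and IAHC cells 0.0685 (0.0222 to 0.160). At E11 non-HE cells held 1.67 (1.2 to 2.20), HE cells 1.04 (0.769 to 1.38) and EHT cells 0.196 (0.0895 to 0.371). EHT cells with any *Klf4* transcript were 5 of 191 at E10 and 6 of 46 at E11, against 19 of 43 and 15 of 30 non-HE cells. The c-kit+CD31+ and c-kit+ IAHC cells of E11 held 0.144 (0.0966 to 0.207) and 0.0787 (0.0316 to 0.162), and type I and type II pre-HSCs 0.0806 and 0.0545. *Klf4* was found in 0 of 141 E10 YS HSPCs, which allows up to 2.13% of cells with a detected transcript at this depth, and in 0 of 46 at E11, which allows up to 6.52%. These limits do not cover cells that express *Klf4* below detection.

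*Nos3*, which makes nitric oxide in endothelium, lies at chr5:24364810-24384474 on the plus strand (26 exons). It was level between non-HE and HE cells and low in everything after EHT. At E10 non-HE cells held 0.791 transcripts per cell (0.548 to 1.1), HE cells 0.694 (0.539 to 0.880), EHT cells 0.236 (0.172 to 0.315) and IAHC cells 0.0685 (0.0222 to 0.160). At E11 it was at 1.7 (1.27 to 2.2), 1.98 (1.59 to 2.43) and 0.674 (0.458 to 0.957) in non-HE, HE and EHT cells. Only 14 of 201 c-kit+CD31+ IAHC cells, 4 of 89 c-kit+ IAHC cells, 6 of 62 type I and 1 of 55 type II pre-HSCs held a *Nos3* transcript, and 0 of 141 and 0 of 46 YS HSPCs did.

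*S1pr1*, the G protein-coupled receptor through which blood-borne sphingosine-1-phosphate acts on endothelium and also guides hematopoietic cells, lies at chr3:115710433-115715072 on the minus strand (2 exons). E10 non-HE cells held 0.605 transcripts per cell (0.395 to 0.886), HE cells 0.653 (0.503 to 0.834), EHT cells 0.251 (0.185 to 0.333) and IAHC cells 0.0411 (0.00847 to 0.12). The E11 level was 1.17 (0.813 to 1.6), 0.913 (0.658 to 1.23) and 0.413 (0.249 to 0.645) in non-HE, HE and EHT cells. Type I pre-HSCs kept 0.258 (0.148 to 0.419), close to EHT cells within counting error, with *S1pr1* in 15 of 62 cells. It was in 6 of 55 type II pre-HSCs, 34 of 201 c-kit+CD31+ and 11 of 89 c-kit+ IAHC cells, 2 of 141 E10 YS HSPCs and 1 of 46 E11 YS HSPCs.

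**Figure D1:**
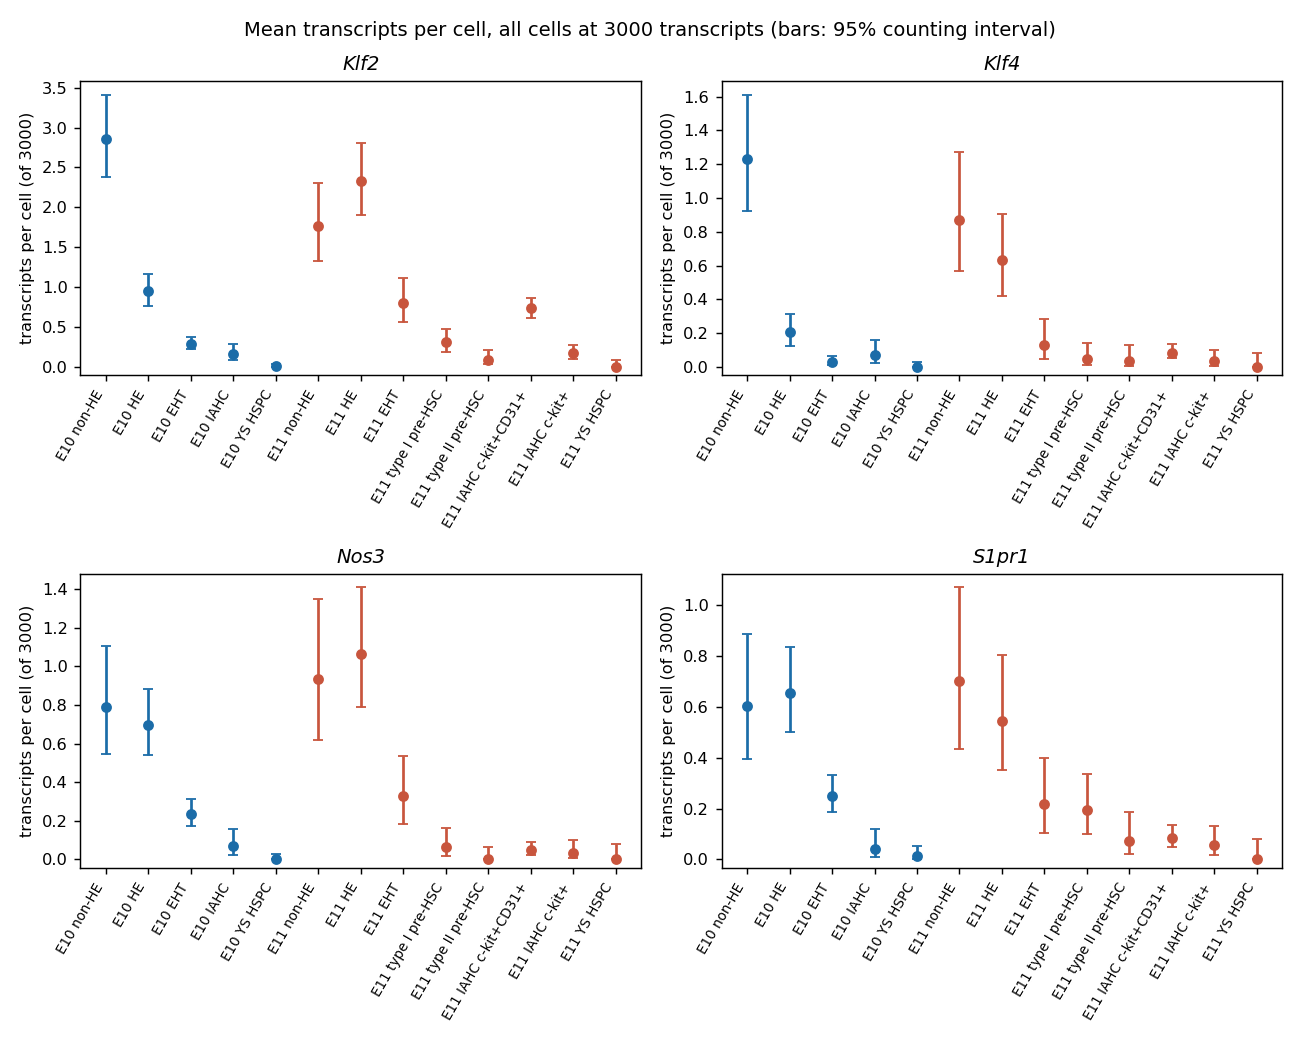
Mean transcripts per cell (vertical axis, linear) of each gene in the 13 single-cell populations (horizontal axis), with every cell at 3000 transcripts and E11 cells thinned to that depth. Points are means over all cells of a population and bars are 95% Poisson intervals, and in each panel the non-HE and HE cells stand above IAHC cells, pre-HSCs and YS HSPCs.

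Placed in 1 order at 3000 transcripts per cell, across separately normalised tables of the stages, the 4 genes shared their top and bottom. For *Klf2* the order began with E10 non-HE cells at 2.86, E11 HE cells at 2.33 and E11 non-HE cells at 1.77. Neighbours in that order were separated beyond counting error only between E11 non-HE cells and E10 HE cells (0.949), between c-kit+CD31+ E11 IAHC cells (0.731) and type I pre-HSCs (0.306), and between type II pre-HSCs (0.0909) and E10 YS HSPCs. For *Klf4*, only E11 HE cells (0.630) stood apart from the next in line, E10 HE cells (0.204), while the top pair were E10 non-HE cells at 1.23 and E11 non-HE cells at 0.867. For *Nos3*, the gaps lay between E10 HE cells (0.694) and E11 EHT cells (0.326) and between E10 EHT cells (0.236) and E10 IAHC cells (0.0685). For *S1pr1*, the gap lay between E11 HE cells (0.543) and E10 EHT cells (0.251). The same 4 populations, non-HE and HE cells of both stages, took the first 4 places for every gene.

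The first step, HE against non-HE, separated the Kruppel-like factors from the other pair at E10. Differences are given as log2 ratios of means with 0.1 transcripts added to each, and a gene was counted when it passed 2-fold and reached 0.2 transcripts per cell in either population. *Klf2* was at -1.50 and *Klf4* at -2.13, whereas *Nos3* was at -0.17 and *S1pr1* at 0.10. Without the added 0.1, the counting intervals were -2.0 to -1.19 for *Klf2*, -3.41 to -1.83 for *Klf4*, -0.80 to 0.45 for *Nos3* and -0.57 to 0.83 for *S1pr1*. Thus 2 of 4 members were more than 2-fold lower, beside 4.19% of all 4252 genes. At E11 the same step gave 0.36 for *Klf2* (-0.01 to 0.75), -0.63 for *Klf4* (-1.28 to -0.07), 0.21 for *Nos3* (-0.29 to 0.74) and -0.32 for *S1pr1* (-1.04 to 0.34), so 0 of 4 passed, beside 5.24% of all genes. Without the larger E11 non-HE set *Klf4* was at -1.05, past 2-fold. The E10 difference of *Klf2* depended on which sets were used. The 2 E10 HE sets held 1.43 (37 cells) and 0.656 (61 cells) and the 2 non-HE sets 3.29 (28 cells) and 2.07 (15 cells), and without the larger HE set the ratio was -0.95, under 2-fold. A list of stress genes differed at this step as well. Of 14 genes of an immediate-early and heat-shock list with enough transcripts, which tracks the stress of dissociation and includes *Fos* and *Hspa1a*, 8 were more than 2-fold lower in E10 HE than in non-HE cells, the list's total being 17.4 against 35.7 per 10000 transcripts. At E11 the totals were 23.7 in HE and 27.1 in non-HE cells. Its part in the *Klf2* and *Klf4* values was not tested.

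The second step, EHT against HE, was the one at which all 4 genes were lower at both stages. The E10 ratios were -1.44 for *Klf2*, -1.27 for *Klf4*, -1.24 for *Nos3* and -1.10 for *S1pr1*, so 4 of 4 were more than 2-fold lower, beside 6.71% of all 4205 genes. The intervals of the plain ratios, -2.23 to -1.22, -4.73 to -1.51, -2.14 to -0.99 and -1.95 to -0.82, lay below 0 for each gene. The E11 ratios were -1.66 for *Klf2*, -1.95 for *Klf4*, -1.43 for *Nos3* and -0.98 for *S1pr1*, so 3 of 4 passed, beside 9.49% of all genes. All E11 intervals lay below 0 as well, from -2.22 to -1.29, -3.63 to -1.37, -2.19 to -0.95 and -2.01 to -0.33. The E10 count is fragile to the 2-fold limit. With 0.5 added in place of 0.1 the ratios were -0.88, -0.42, -0.70 and -0.62, and 0 of 4 passed, beside 1.09% of all genes. Without the smaller HE set, with 0.1 added, only *Nos3* passed. The direction was the same under each of these settings. Endothelial markers were lower at this step in the same measure, 9 of 11 with enough transcripts at E10 (median -1.46) and 10 of 12 at E11 (median -1.61), while the median over all genes was 0.04 and -0.07. Of the immediate-early list, 0 of 9 genes at E10 and 0 of 15 at E11 were more than 2-fold lower (medians -0.26 and -0.10). Markers of other cells moved at the same step. Macrophage markers were at 0.408 per 10000 transcripts in HE and 1.239 in EHT cells at E10 and at 0.174 and 3.78 at E11, with the 1 gene that had enough transcripts more than 2-fold higher at each stage (1.386 and 3.41). Mesenchymal markers were at 2.245 and 0.384 at E10 (2 of 2 genes lower) and at 3.70 and 0.913 at E11 (4 of 4 lower), and erythroid markers at 2.31 and 0.14 (1 of 1 lower) and at 1.348 and 0.174 (2 of 2 lower). The part of these cells was not tested.

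**Figure D2:**
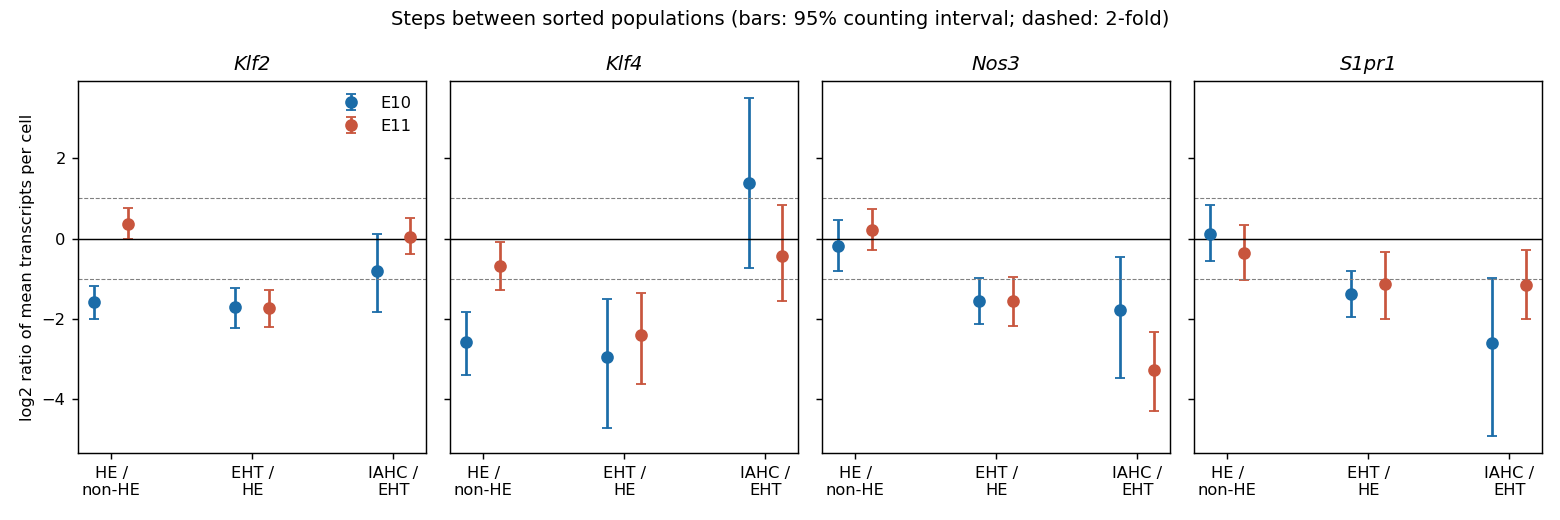
Log2 ratio of mean transcripts per cell (vertical axis) of each gene for HE against non-HE, EHT against HE and c-kit+CD31+ IAHC against EHT cells, with E10 in blue and E11 in red. Bars are 95% counting intervals of the plain ratio and dashed lines mark 2-fold, and for EHT against HE every bar lies below 0 at both stages.

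Past EHT the genes parted. From EHT to IAHC at E10, *S1pr1* was lower at -1.32 (plain ratio -4.94 to -0.98), *Nos3* at -0.99 (-3.47 to -0.45) and *Klf2* at -0.55 (-1.85 to 0.11), so 1 of the 3 with enough transcripts passed 2-fold, beside 5.70% of all genes. From EHT to c-kit+CD31+ IAHC cells at E11, *Nos3* was lower at -2.19 (-4.30 to -2.32) and *S1pr1* at -0.85 (-2.0 to -0.29), but *Klf2* was at 0.04 (-0.39 to 0.51), so 1 of 3 passed, beside 10.6% of all genes. *Klf2* was thus as high in E11 c-kit+CD31+ IAHC cells as in EHT cells within counting error. Toward type I pre-HSCs, *Nos3* was at -1.98 (-4.35 to -1.52), *Klf2* at -0.85 (-1.62 to -0.32) and *S1pr1* at -0.52, so 1 of 3 passed, beside 9.87% of all genes. From type I to type II pre-HSCs, *Klf2* was at -1.10 (-2.49 to -0.44) and *S1pr1* at -0.78, so 1 of 2 passed, beside 1.72% of all genes. With 0.5 added in place of 0.1, the *S1pr1* call from EHT to IAHC at E10 was lost (0 of 3, beside 0.709% of all genes). The *Nos3* call toward type I pre-HSCs was lost as well (0 of 3, beside 1.44%). So was the *Klf2* call from type I to type II pre-HSCs (0 of 2, beside 0.0400%). The *Klf2* value also rests on few cells. All 36 *Klf2* transcripts of type I pre-HSCs came from 11 of 34 cells of 1 set, 18 of them from a single cell, the other sets had 0 of 8 and 0 of 20 cells, and without that set the ratio turned to 1.67. The sets of both types carry matching numbers, and number by number type I and type II held 0 and 0.10, 1.06 and 0.280, and 0 and 0.200 transcripts per cell, so type II was the higher in 2 of 3. Without the single cell the type I level was 0.295 transcripts per cell. The type I sets also differed in erythroid transcripts, with 0.125, 1.82 and 7.90 per cell, and the set that held *Klf2* was the middle one. Erythroid markers were also higher past EHT, with 2 of 2 genes more than 2-fold higher in E10 IAHC cells (median 2.67) and 3 of 3 in type I pre-HSCs (2.93), and the 1 macrophage gene with enough transcripts was lower in c-kit+CD31+ IAHC cells (-1.37) and in type I pre-HSCs (-1.47) than in E11 EHT cells. Mesenchymal markers were at 2.40 per 10000 in c-kit+CD31+ IAHC cells and 1.23 in type I pre-HSCs, against 0.913 in E11 EHT cells. Of their genes with enough transcripts, 1 of 3 and 1 of 1 were more than 2-fold higher. The part of these markers was not tested.

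Among the E11 hematopoietic populations, *Klf2* stood highest in c-kit+CD31+ IAHC cells, whereas c-kit+ IAHC cells lay level with type II pre-HSCs. The 4 sets of c-kit+CD31+ cells held 1.4, 1.14, 0.837 and 1.30 transcripts per cell, and 104 of 201 cells (51.7%, 44.6 to 58.8) had at least 1. The 5 sets of c-kit+ cells held 0.867, 0.438, 0, 0.286 and 0.0769, and 8 of 89 cells (8.99%, 3.96 to 16.9) had one. Only the highest c-kit+ set reached the range of the c-kit+CD31+ sets. A purification rule based on *Gpr56* and genes of other cells was applied, after the study's methods. The paper describes its IAHC cells as already purified in silico in this way. On the down-sampled counts used here, 47 of the 89 c-kit+ cells passed. So did 140 of 201 c-kit+CD31+ cells and 54 of 73 E10 IAHC cells. Failing the rule at this depth therefore does not mark a cell as one of another kind. In the c-kit+ cells that passed, *Klf2* was at 0.0851 per 10000 transcripts against 0.539 in all 89. In c-kit+CD31+ cells it was at 2.26 against 2.34. Without the highest c-kit+ set the level was 0.297. The log2 ratio of c-kit+ to c-kit+CD31+ cells was -1.78 (-2.79 to -1.51), and *Klf2*, the 1 member with enough transcripts, passed 2-fold lower, as did 72 of all 4903 genes (1.5%). YS HSPCs were lower still than c-kit+CD31+ cells, at -3.38 (-11.06 to -3.26), again 1 of 1, beside 7.62% of all genes. CD31 is itself an endothelial surface protein and was used in 1 sort only, and the sorts were made from separate sets.

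The immediate-early and heat-shock list moved with *Klf2* among IAHC cells. It made up 19.572 of 10000 transcripts in c-kit+CD31+ cells, 11.7 in c-kit+ cells and 8.0 in YS HSPCs, and 5 of its 13 genes with enough transcripts were more than 2-fold lower in c-kit+ than in c-kit+CD31+ cells. In the c-kit+CD31+ population, cells with a *Klf2* transcript held 12.3 transcripts of the list per cell and those without held 7.10, the same direction in 4 of 4 sets, while endothelial markers were at 11.8 and 10.7. E10 HE cells with *Klf2* held 6.55 and those without 4.13 (2 of 2 sets), and E10 EHT cells 7.47 and 4.0 (3 of 3 sets). At E11 the difference was 12.8 against 8.30 in HE cells and 10.1 against 9.24 in EHT cells. *Klf2* is itself an early-response gene in many cells. Over the 9 E11 IAHC sets, *Klf2* levels had a Pearson r of 0.79 with the list and of 0.76 with endothelial markers, and of -0.67 with mesenchymal markers, given as a description of 9 points from 2 sorts. The mesenchymal list made up 3.89 of 10000 transcripts in c-kit+ and 2.40 in c-kit+CD31+ cells, and its part was not tested. The part of dissociation in the *Klf2* level was not tested.

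**Figure D3:**
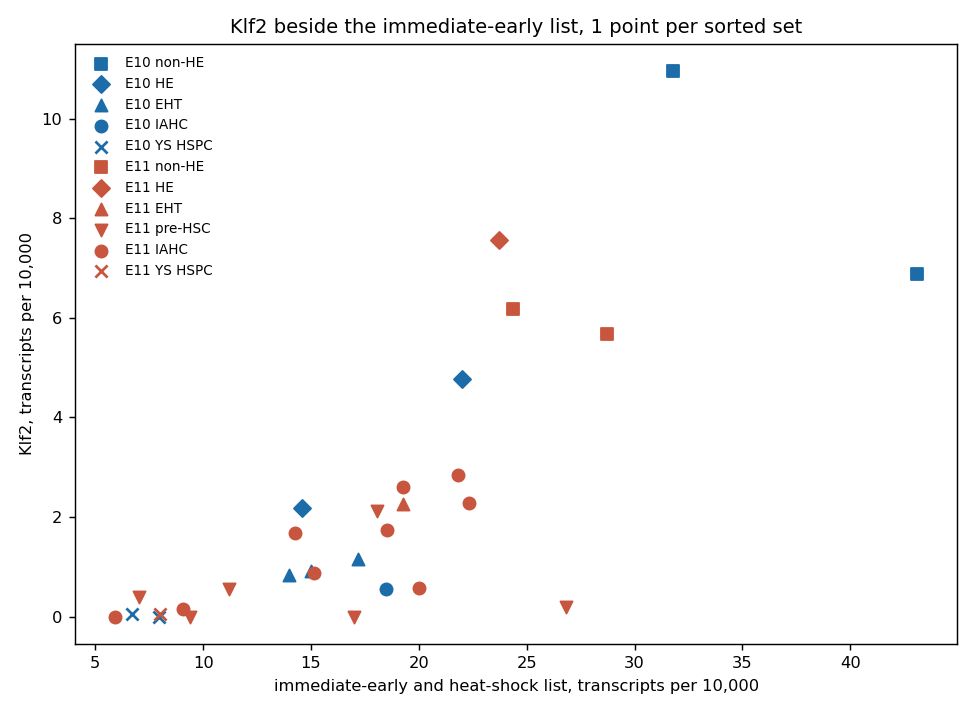
*Klf2* (vertical axis) against the immediate-early and heat-shock list (horizontal axis), both in transcripts per 10000, with 1 point per sorted set of single cells. Colour marks the stage and marker shape the kind of population. Both kinds of E11 IAHC cells share 1 shape, as do both types of pre-HSCs. Non-HE sets, the E11 HE set and the smaller E10 HE set lie highest for *Klf2*, and among E11 IAHC sets those of c-kit+CD31+ cells lie above all but 1 set of c-kit+ cells.

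Stages were compared with E11 cells thinned to 3000 transcripts and both tables normalised separately. *Klf2* was higher at E11 in HE, EHT and c-kit+CD31+ IAHC cells but not in non-HE cells. The E11 c-kit+ IAHC cells, at 0.169 transcripts per cell, were level with E10 IAHC cells at 0.164. In HE cells *Klf2* was at 1.2 (0.88 to 1.71) and *Klf4* at 1.26 (0.76 to 2.53), with *Nos3* at 0.55 and *S1pr1* at -0.23, so 2 of 4 were more than 2-fold higher at E11, beside 2.80% of all genes. In EHT cells *Klf2* was at 1.2 (0.84 to 2.11), *Nos3* at 0.34 and *S1pr1* at -0.15, so 1 of 3 passed, beside 1.67%. In c-kit+CD31+ IAHC cells *Klf2* was at 1.65 (1.3 to 3.14), 1 of 1, beside 0.449%. With 0.5 added in place of 0.1, none of these calls remained. There were 0 of 4 in HE cells, beside 0.347% of all genes, and 0 of 3 in EHT cells, beside 0.206%. In IAHC cells there were 0 of 1, beside 0 of all 3560 genes. In non-HE cells *Klf2* was at -0.67, *Klf4* at -0.46, *Nos3* at 0.21 and *S1pr1* at 0.18. Thus 0 of 4 were more than 2-fold higher, beside 2.74%. The column names call the E10 non-HE cells early E11, so embryo age is uncertain in this comparison. The median of all genes was at -0.30 in EHT and -0.32 in IAHC cells, so relative to it the *Klf2* differences were larger. In HE cells, which have 1 set at E11, the differences were 0.66 for *Klf2* and 0.88 for *Klf4* without the larger E10 set. In IAHC cells, 4 genes of the immediate-early list were more than 2-fold higher at E11 and 2 lower, of 12 (median -0.11). In HE and EHT cells the list's medians were 0.55 and 0.43, with 0 of 9 genes past 2-fold in each. The medians of all genes there were -0.20 and -0.30. Erythroid markers were at 5.30 per 10000 in E10 and 0.358 in E11 c-kit+CD31+ IAHC cells, with 2 of 2 genes more than 2-fold lower (median -2.40), and in EHT cells the 1 macrophage gene with enough transcripts was higher at E11 (1.523). The part of these lists in the *Klf2* differences was not tested.

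The genes were seldom seen together in 1 cell outside the endothelial populations. At least 2 of the 4 were detected in 31 of 43 non-HE, 50 of 98 HE, 27 of 191 EHT, 2 of 73 IAHC and 0 of 141 YS HSPC cells at E10. At E11 the numbers were 25 of 30 non-HE, 38 of 46 HE, 14 of 46 EHT, 6 of 62 type I, 0 of 55 type II, 35 of 201 c-kit+CD31+, 8 of 89 c-kit+ and 0 of 46 YS HSPC cells. All 4 were found in 4 non-HE and 3 HE cells at E10 and in 6 non-HE, 9 HE, 2 EHT and 1 type I cell at E11. In E10 EHT cells, 5 of the 6 pairs were above the product of the single shares, 2 of them by less than 1 cell, with *Nos3* and *S1pr1* together in 12 cells against 6.78, *Klf2* and *S1pr1* in 11 against 6.20 and *Klf2* and *Klf4* in 3 against 0.838. *Klf2* and *Nos3* met in 5 against 5.86, *Klf4* and *Nos3* in 1 against 0.916 and *Klf4* and *S1pr1* in 1 against 0.969. In E11 c-kit+CD31+ IAHC cells, *Klf2* and *Klf4* met in 15 cells against 11.4 and *Klf2* and *Nos3* in 10 against 7.24. These counts are small and are given as a description.

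The other parts of the flow pathway were compared between EHT and HE cells by lists of known members. Flow sensors were lower in part. Of the 12 genes listed, 3 of 7 with enough transcripts were more than 2-fold lower at E10 and 5 of 8 at E11 (medians -0.91 and -1.14), beside 6.71% and 9.49% of all genes. *Flt4*, the VEGF receptor that sets the flow level a vessel prefers, was at 0.05 in EHT and 0.31 transcripts per cell in HE cells at E10 (log2 ratio -1.46) and at 0 and 0.30 at E11 (-2.02). *Kdr*, the main VEGF receptor of endothelium, was at 0.06 and 0.19 at E10 (-0.90), with too few transcripts to be counted, and at 0.22 and 0.89 at E11 (-1.64). *Pecam1*, the junction protein CD31, was at -1.29 and -1.15, and *Plxnd1*, a semaphorin receptor that senses force, was at -0.91 and -1.43. *Pecam1*, *Cdh5* and *Kdr* also belong to the endothelial list above.

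Few genes of the cascade between the sensors and *Klf2* could be compared. Of the 10 genes of the MEKK3, ERK5, MEF2 and CCM list, 0 of 3 with enough transcripts at E10 and 0 of 5 at E11 were past 2-fold lower (medians -0.29 and 0.10), beside 6.71% and 9.49% of all genes, and a difference from the members was not tested. *Mef2c*, a MEF2 factor, was at 0.48 in EHT and 0.28 in HE cells at E10 (0.63) and at 0.70 and 0.48 at E11 (0.46). *Mapk7*, which encodes ERK5, was at -0.29 and -0.65, *Pdcd10*, a brake of the cascade in the CCM complex, at -0.29 and -0.24, and *Map3k3*, which encodes MEKK3, at -0.36 (too few transcripts to be counted) and 0.10. The other 7 genes at E10 and 5 at E11 had under 0.2 transcripts per cell in both populations, so a difference in them was not detectable at this depth.

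Among 16 genes that flow or the Kruppel-like factors are known to control, 3 of 7 were lower and 1 higher at E10, and 6 of 9 lower and 1 higher at E11 (medians -0.69 and -1.33). Of all genes, 6.71% and 9.49% were lower and 3.33% and 6.75% higher, which holds for the counts of each list below. *Edn1*, the vasoconstrictor endothelin, which laminar flow represses, was at 0.10 in EHT and 0.79 in HE cells at E10 (-2.11). At E11 it was at 0.59 and 2.50 (-1.92). *Tek*, the angiopoietin receptor, was at -1.59 and -1.38, and *Aqp1*, a water channel, was at 0.07 and 0.15 at E10 (-0.59), too few to be counted, and at 0.17 and 1.11 at E11 (-2.14). *Cited2*, a transcriptional co-regulator needed for fetal hematopoiesis, was the 1 higher gene. It was at 0.36 in EHT and 0.11 in HE cells at E10 (1.1) and 0.35 and 0.09 at E11 (1.26).

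Around *Nos3*, 3 of 8 nitric oxide genes of a list of 13 were lower at E10, and 2 of 8 lower and 1 higher at E11. *Cav1*, the caveolin that holds the synthase inactive, was at 0.02 in EHT and 0.27 in HE cells at E10 (-1.66) and 0.17 and 1.87 at E11 (-2.85). *Ddah1*, which clears an inhibitor of the synthase, was at -1.44 and -1.17, and *Ddah2*, which does the same, at -1.05 and -0.53. *Hsp90aa1*, a chaperone that helps activate it and also a heat-shock protein, was higher at 3.87 and 2.33 at E10 (0.71) and 3.65 and 1.54 at E11 (1.19). Around *S1pr1*, 0 of 3 genes at E10 and 0 of 4 at E11 were past 2-fold lower, of 11 in the table. *Spns2*, which exports sphingosine-1-phosphate, was at 1.08 in EHT and 0.69 in HE cells at E10 (0.57) and at 1.61 and 0.76 at E11 (0.99). *Gnai2* and *Gna13*, G proteins that receptors of this family use, were at -0.76 and 0.35 at E10 and at -0.52 and 0.09 at E11, and *Sphk2*, a kinase that makes the lipid, was at -0.09 at E10, with too few transcripts to be counted, and at 0.52 at E11.

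Few of the remaining Kruppel-like factors could be compared. Of 15 relatives, 0 of 2 with enough transcripts at E10 and 0 of 4 at E11 were past 2-fold lower (medians -0.70 and -0.75), beside 6.71% and 9.49% of all genes, whose medians were 0.04 and -0.07. *Klf13* was at -0.76 and -0.60, *Klf6* at -0.64 and 0.27, *Klf7* at -0.60 and -0.94 and *Klf10* at -0.18 and -0.90, with too few transcripts of the last pair at E10 to be counted.

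**Figure D4:**
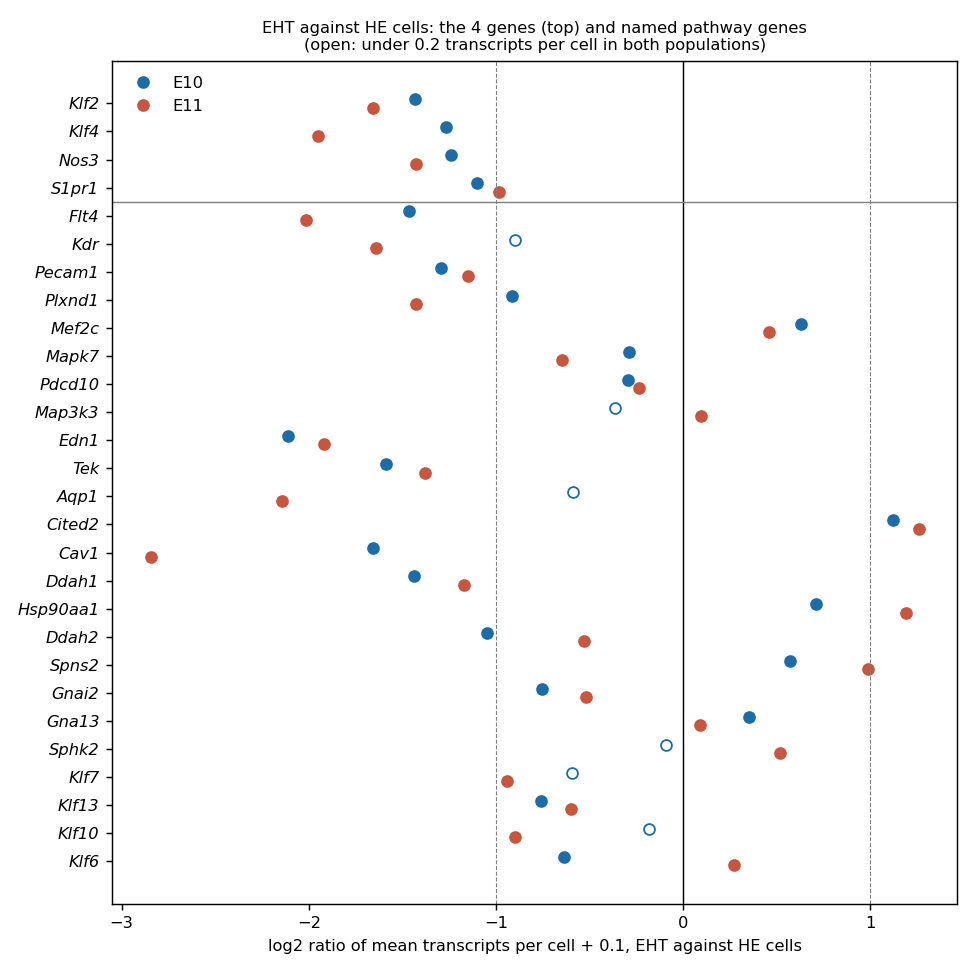
Log2 ratio of EHT to HE cells (horizontal axis, means with 0.1 transcripts per cell added) for the 4 members and 24 named pathway genes (vertical axis, grouped by list), at E10 and E11. Open symbols mark genes under 0.2 transcripts per cell in both populations, and the members, *Edn1* and *Cav1* lie left of 0 at both stages while *Cited2* and *Spns2* lie right of it.

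For each member, the 5 genes whose levels ran most like it over the 13 populations were taken from the 2400 that reached 0.5 transcripts per cell in any of them. The measure is the Pearson r of log2 mean levels, over populations that share sets and strains. For *Klf2* they were *Rhob* and *Grb10* (0.97), and *Ski*, *Tsc22d1* and *Mmrn2* (0.96). For *Klf4*, 4 of them were *Htra1* (0.98) and *Cav1*, *Notch1* and *Dhh* (0.97). For *Nos3* they were *Fbn1*, *Ptprb*, *Crip2*, *Ctsh* and *Aplp2* (0.99), and for *S1pr1* they were *Hey1* and *Snrk* (0.98) and *Fam198b*, *Tjp1* and *Gja5* (0.97). Between members r was 0.95 for *Nos3* with *S1pr1*, 0.91 for *Klf2* with *Klf4* and with *Nos3*, 0.90 for *Klf2* with *S1pr1*, 0.89 for *Klf4* with *Nos3* and 0.85 for *Klf4* with *S1pr1*, so no member was among the 5 most like another.

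In wIAHCs the 4 genes were near the limit of detection. Of 109 libraries, 57 with at least 5000 transcripts were used, of which 21 and 7 were E10 ventral and dorsal and 17 and 12 were E11 ventral and dorsal, with totals from 5099 to 115328. In such bulk libraries fewer cells of a type and less RNA per cell cannot be told apart. *Klf2* was found in 10 of 21 E10 ventral, 4 of 7 E10 dorsal, 5 of 17 E11 ventral and 0 of 12 E11 dorsal wIAHCs. The lowest, median and highest values per 10000 transcripts were 0, 0 and 2.43 in E10 ventral, 0, 0.262 and 1.51 in E10 dorsal and 0, 0 and 4.9 in E11 ventral wIAHCs, with means of 0.486 ± 0.753, 0.517 ± 0.612 and 0.808 ± 1.58 (SD, n = 21, 7 and 17). The groups overlapped throughout, since each held wIAHCs at 0.

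The wIAHC contrasts of stage and side gave no call for any member. The planned filter on low counts kept 260 genes and none of the 4, so the members were tested in an unfiltered fit of 13627 genes that was added after seeing the data. In edgeR's quasi-likelihood test with Benjamini-Hochberg adjustment, 0 of 4 members passed an adjusted p of 0.05 for E11 against E10 on the ventral side (2.27% of all genes passed) or on the dorsal side (0.785%), for ventral against dorsal at E10 (0.0587%) or at E11 (0.0881%), or for the interaction (0.154%). At an unadjusted p under 0.05, edgeR gave 0, 1, 0, 1 and 1 members in these contrasts, each time *Klf2*, and DESeq2 gave 0, 0, 0, 1 and 0. Of all 13627 genes, 2010, 1402, 727, 1217 and 867 were under this limit by edgeR. By DESeq2 without a filter, 845, 925, 124, 631 and 274 were. wIAHCs of 1 embryo could not be recognised. Where some share an embryo, p-values between stages are too small, and for the sides the effect of sharing is not known.

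The values for *Klf2* were as follows. At E11, the pooled ventral value of 0.607 per 10000 was 2.56 times a dorsal floor of 3 counts over that group. Without the library that held 9 of the 20 ventral transcripts it was 1.53 times this floor. These multiples leave out the spread of the ventral wIAHCs and are no lower bounds of a difference. The adjusted p was 0.0771 by edgeR and ranged from 0.0755 to 1 over 8 fits. The 5 ventral wIAHCs with *Klf2* held 0.819, 0.878, 3.23, 3.95 and 4.9 per 10000, from 1 to 9 transcripts each, and the other 12 held none. A two-sided permutation test of the values themselves over 100000 resamples gave p = 0.103, and 0.681 after adjustment over the 16 tests of members and contrasts. At E10 the ventral mean was not above the dorsal one, and the same permutation test gave p = 0.875. The pooled E10 value was higher on the ventral side, at 0.677 against 0.397 per 10000. All 8 fits also had ventral above dorsal at E10 (log2 0.57 in edgeR's unfiltered fit), with no call. For E11 against E10 on the dorsal side, E10 exceeded E11 at least 1.67-fold with an adjusted p of 0.136 by edgeR (0.0602 to 1 over 8 fits) and a permutation p of 0.0181 (0.289 adjusted). Other markers moved with stage as well, since erythroid markers were at 204 and 148 per 10000 in E11 ventral and dorsal wIAHCs against 1.75 and 2.04 at E10, and mesenchymal markers at 3.31 and 5.01 against 0.825 and 0.594. Of the E11 libraries, 3 held over 10% hemoglobin transcripts, and the part of these markers was not tested. The count of 0 of 12 allows up to 25% of dorsal wIAHCs with a transcript, and 2 of 9 E11 dorsal libraries under 5000 transcripts held 1 *Klf2* transcript each. The E11 column names give a first and a second set, and the labels do not say what sets them apart. By set, *Klf2* was in 1 of 4 and 4 of 13 ventral and in 0 of 6 and 0 of 6 dorsal wIAHCs. The first set held 2 ventral transcripts in all, or 0.18 per 10000 over its 4 ventral wIAHCs, and the second 18, or 0.812 over its 13, although the median total of the ventral wIAHCs was the larger in the first set (27592 against 11642). In E11 dorsal wIAHCs the immediate-early list was lowest, at 6.44 per 10000 against 12.2 to 14.8 in the other groups, and the endothelial list highest, at 18.7 against 9.06 to 10.4, and the part of either was not tested.

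Of the other members, *S1pr1* was seen in the most wIAHCs. *S1pr1* was found in 14 of 21 E10 ventral, 3 of 7 E10 dorsal, 7 of 17 E11 ventral and 4 of 12 E11 dorsal wIAHCs, at means of 0.50 ± 0.565, 0.559 ± 0.890, 0.321 ± 0.474 and 0.373 ± 0.654 per 10000 (SD), with highest values of 1.64, 2.15, 1.2 and 1.75. *Klf4* was found in 5, 2, 1 and 0 and *Nos3* in 3, 1, 4 and 1 wIAHCs of these groups. Without 1 library of 3 *S1pr1* transcripts in each, the *S1pr1* mean was 0.294 in E10 dorsal and 0.248 in E11 dorsal wIAHCs. Among the tested contrasts, the largest difference between group means of *S1pr1* was -0.186, for E11 against E10 dorsal wIAHCs. Its permutation p was 0.606. For *Klf4* the largest such difference was 0.227 per 10000, higher in E10 than in E11 dorsal wIAHCs, with a permutation p of 0.246 (0.960 adjusted). For *Nos3* it was 0.154, higher in E11 than in E10 ventral wIAHCs, with a permutation p of 0.128 (0.681 adjusted). The first came from 1 library with a single *Klf4* transcript, without which the E10 dorsal mean was 0.0145. The second turned when the set in the column names was fitted as a term, which sets E10 against the first E11 set. The log2 change was then -1.31 in edgeR's unfiltered fit, against 0.52 without the term. *Nos3* was in 0 of 4 and 4 of 13 ventral wIAHCs of the E11 sets.

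**Figure D5:**
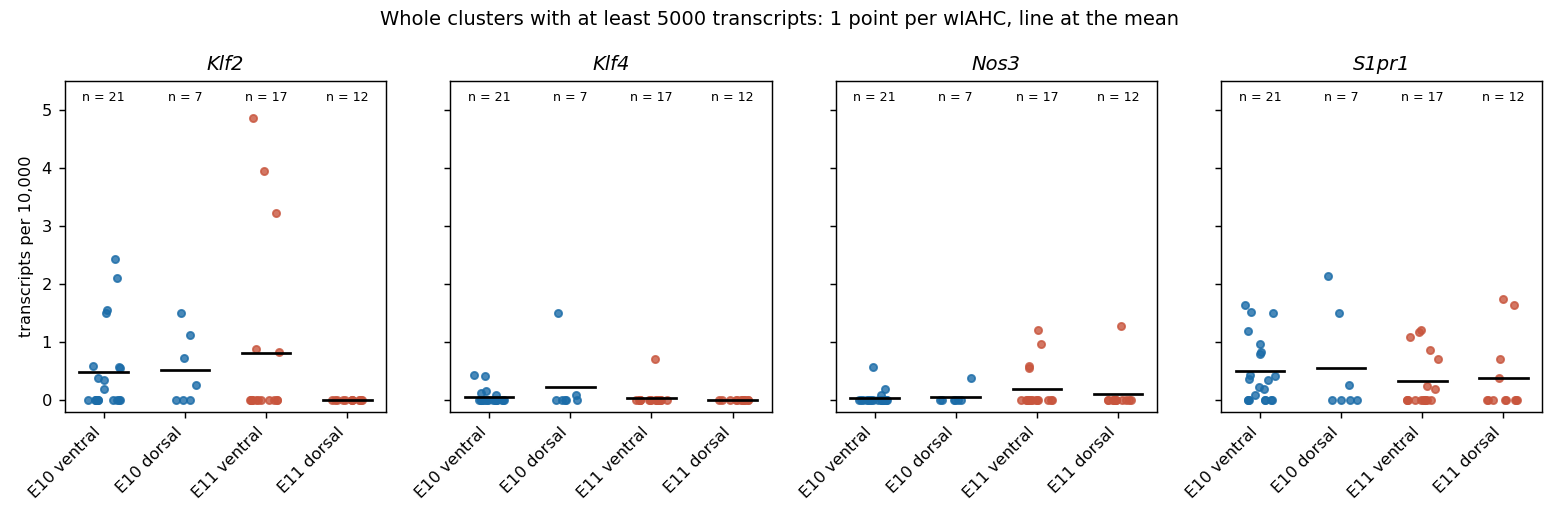
Transcripts per 10000 (vertical axis, linear) of each gene in each of the 57 wIAHC libraries, by stage and side (horizontal axis, with n = 21 and 7 ventral and dorsal at E10 and 17 and 12 at E11). Points are libraries and lines are group means, and most points lie at 0, including all 12 of *Klf2* in E11 dorsal wIAHCs.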

How the data were processed

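Single cells and whole IAHCs were sequenced by CEL-Seq. The submitters' processing notes name BWA 0.6.2-r126 and the build mm10. For single cells the authors deposited estimated counts of transcripts, corrected for collisions of 256 molecular barcodes, down-sampled per table to 3000 (E10) or 5000 (E11) per cell and raised by 0.1, which was subtracted here. For wIAHCs the authors deposited estimated counts that were not scaled; undoing their correction gave whole barcodes within 3.13e-13, and 1 value was saturated. All columns were used (0 left over), and 90 spike-in rows were left out. E11 cells were thinned with a fixed seed. No doublet caller was run, since cells were sorted into wells.

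The 4 members and all gene lists were chosen with earlier results of these data known. Named in the text are the members, up to 4 genes of each pathway list with the largest absolute mean log2 ratio of EHT against HE cells, and the 5 genes most like each member, of which 1 for *Klf4* is not reported here. Populations of single cells have 1 sample, so called means past 2-fold (pseudocount 0.1, at least 0.2 transcripts per cell). Means have exact Poisson, shares Clopper-Pearson and ratios conditional binomial intervals, at 95%. wIAHC counts were rounded and tested with edgeR 4.0.16 (TMM, filterByExpr, quasi-likelihood) on 4 groups of stage and side, and with DESeq2 1.42.0 as the second tool, in R 4.3.3. Other steps used Python 3.11.15, numpy 2.4.6, scipy 1.17.1, pandas 2.3.3 and matplotlib 3.10.9. Alternatives were another pseudocount and level limit, thinning, each sorted set or, for *Klf2*, each E11 wIAHC left out, and other filters, depths and scalings of the wIAHC fit. The unfiltered wIAHC fits, the permutation tests and the wIAHCs or the cell left out were chosen after seeing the data. Where the labels do not say that samples came from separate embryos, p-values measure only the spread between these samples. Promoters came from RefSeq (GRCm38.p6), in which 2 members had an entry, and gene positions from GENCODE (GRCm38).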

Additional observations from a re-analysis of the deposited data

Results flagged for a closer look

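*Klf4* in c-kit+ E11 IAHC cells stood out in 1 of 5 sorted sets, at 0.333 transcripts per cell, far above the other 4. In E10 dorsal wIAHCs, 1 of 7 libraries stood apart for *Klf4*, at 1.51 per 10000, and 1 of 7 for *Nos3*, at 0.371, each from a single transcript. How often chance gives such a sample was not determined, because many of these values are tied at 0, where a single transcript can stand apart. *Klf2* in HE against non-HE cells was at a log2 ratio of -1.50 at E10 and of 0.36 at E11, opposite in sign, and the difference between the stages was not tested.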

How the results depend on the processing

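With a pseudocount of 0.5, log2 ratios that moved by more than their spread were -1.30 for *Klf4* in E10 HE against non-HE cells, -0.88 for *Klf2* in E10 EHT against HE cells, -1.04 for *Nos3* in c-kit+CD31+ IAHC against EHT cells and -1.12 for *Klf2* in c-kit+ against c-kit+CD31+ IAHC cells. Leaving out 1 sorted set at a time gave these ranges. At E10, HE against non-HE gave -1.97 to -0.95 for *Klf2* and -0.71 to 0.84 for *S1pr1*, and EHT against HE gave -1.98 to -0.96 for *Klf2*. At E11, HE against non-HE gave -0.40 to 0.72 for *Nos3* and -0.64 to 0.46 for *S1pr1*, and *Klf2* gave -3.62 to -0.36 in type I pre-HSC against EHT and -1.59 to 1.67 in type II against type I pre-HSCs, where it reversed. Between stages, non-HE cells gave -0.77 to 1.11 for *Nos3* and -0.92 to 0.92 for *S1pr1*, and HE cells 0.66 to 1.68 for *Klf2*. The direction or size held for 96 of 100 other settings and 121 of 136 left-out sets of these ratios. With genes of at least 0.5 transcripts per cell, 1.1% of genes were lower in type II than type I pre-HSCs and 19 of 1412 genes (1.3%) higher in E11 than E10 non-HE cells. After thinning, at least 2 members met in 8 E11 EHT, 2 type I and 21 c-kit+CD31+ cells. Of the 5 genes most like *Klf2*, *Klf4*, *Nos3* and *S1pr1*, rank correlation kept 1, 0, 1 and 1, and a pseudocount of 0.5 kept 2, 2, 3 and 2. The filtered wIAHC fit called 81, 24, 0, 0 and 0 genes, which became 310, 107, 8, 12 and 21 without a filter. With at least 10000 transcripts per library it called 132 and 3 for the ventral and dorsal stage contrasts. With the set in the column names as a term it called 39 for the ventral one. Leaving out each of the 29 E11 wIAHCs in turn, the adjusted p of *Klf2* by edgeR for the E11 sides lay between 0.0534 and 0.313. The causes were not tested. No paired analysis was possible by replicate number because the labels give the populations and wIAHC groups none in common. Only the set in the column names, shared by E11 ventral and dorsal wIAHCs, could be fitted as a term, and the labels do not say what it stands for. Both pre-HSC types have sets with matching numbers in their names, but the labels do not say that a number marks a shared sort, and their values stand side by side without a test. Depth limits *Klf4* and *Nos3* in hematopoietic cells and every member in wIAHCs.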
